A study of Mus musculus with 6 samples.

Results

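This section describes 34 genes used as markers of the cells that share the liver with hepatocytes, and how they were read in cultures of mouse primary hepatocytes. They cover cholangiocytes (5 genes), Kupffer cells (8), endothelium (7), stellate cells (8) and blood leukocytes (6) and were matched to the arrays by gene symbol. A probe set carrying exactly 1 gene symbol was found for 33 of the 34, out of 22180 genes in all, and where a gene had several such probe sets the one with the highest mean over the 6 arrays was kept. Spp1, a secreted phosphoprotein gene of bile duct cells, had no such probe set in the annotation used here, and it carries no value below. The tested cultures were wild-type primary hepatocytes of adult male C57Bl/6 mice treated for 4 h with 2 µM GW4064, which activates FXR, the nuclear receptor for bile acids, and the other cultures were the same kind of cells given the solvent DMSO for the same time. William's medium without serum was used for both, and each group has 3 arrays. The design text names 3 independent preparations, and the labels do not say whether 1 or several animals went into each.

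Hepatocytes are released from the liver by enzymatic digestion, which also frees the cells around them. Cholangiocytes line the bile ducts and carry keratins, EpCAM and the transcription factor SOX9. Kupffer cells are the resident macrophages of the sinusoids, whose endothelium carries scavenger receptors such as stabilins, and stellate cells store vitamin A and make collagen when activated. Markers of these cells in a hepatocyte culture are read as a measure of carry-over, although SOX9 and some keratins can also be switched on in hepatocytes that lose their mature state in culture. In a bulk measurement fewer cells of a type and less RNA per cell cannot be told apart.

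Total RNA was read on 6 one-colour arrays, whose deposited log2 intensities ran from 0.94 to 13.07, with array medians within 0.053 of each other. The cultures showed the hepatocyte label in most of the hepatocyte genes. Of 25 measured hepatocyte genes, 24 lay above the 50th percentile of all genes in DMSO, led by Alb (albumin) with a mean of 12.82 in GW4064 and 12.85 in DMSO, with Ahsg, Ttr and Fgb next. Slco1b2, an organic anion uptake carrier, was the exception at the 30.5th percentile. Above the 75th percentile lay 18 of the 25. Asgr1 and Slc10a1 were at the 61.9th percentile in DMSO, below the endothelial marker Cdh5 at the 72.7th. The hepatocyte genes with the smallest p for GW4064 were Hnf4a, a transcription factor of hepatocyte identity, and Tdo2, which breaks down tryptophan. Hnf4a read 9.28, 9.65 and 9.41 in GW4064 and 8.78, 8.99 and 8.93 in DMSO, with no overlap of the groups, a difference of 0.55 on the log2 scale (SE 0.12) at a limma adjusted p of 0.393. Tdo2 read 6.77, 7.17 and 7.39 in GW4064 and 7.38, 7.68 and 8.32 in DMSO, a difference of -0.68 (SE 0.24) at an adjusted p of 0.797 and with overlapping groups. The treatment also registered, since Abcb11, the bile salt export pump gene and a known FXR target, read 8.14, 7.80 and 7.96 in GW4064 cultures against 5.09, 4.83 and 4.74 in DMSO cultures (limma adjusted p = 3.70e-05), and Nr0b2, another FXR target, was higher by 2.37 on the log2 scale (adjusted p = 1.17e-04). Precision is limited by having 3 arrays per group.

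As a list, the non-hepatocyte markers read slightly below the middle of all genes. Their median level was 3.91 in GW4064 and 3.90 in DMSO on the log2 intensity scale, which put the median member at the 45.34th and the 44.97th percentile of all genes. In DMSO 13 of the 33 measured members (39.4%) lay above the 50th percentile, 3 above the 75th and 1 above the 90th. The hepatocyte genes had a median percentile of 89.6 there. As a floor, 33 measured genes of organs other than the liver (retina, muscle, testis, brain and others) had a median level of 3.28 in GW4064 and 3.32 in DMSO, at the 33.8th percentile in DMSO. Of the 33 marker genes, 20 lay above that median. Krt10 (a skin keratin, 4.65, 55.9th percentile in DMSO), the gene next to the top of that list, was exceeded by 9. Its highest gene, Acta1 (skeletal muscle actin, 6.71, 78.7th percentile), was exceeded by 2. In each case this was a smaller share than that of all genes above the same percentile. Probe sets differ in how strongly they bind their targets, so these positions describe array signal and do not rank the genes by abundance, and no test was made of them.

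**Figure D1:**
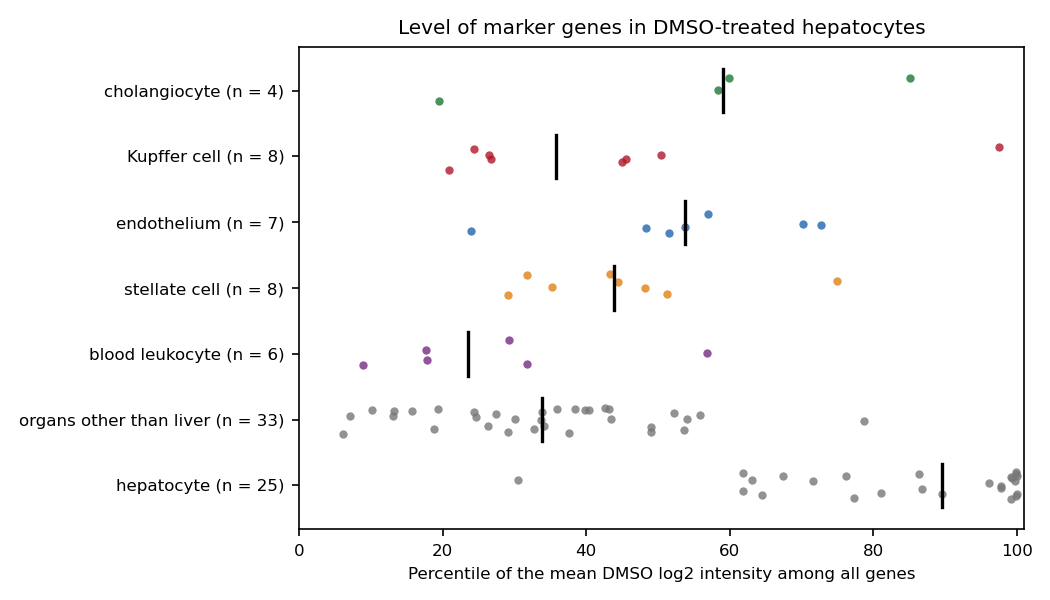
Percentile of each gene's mean DMSO log2 intensity among all 22180 genes (horizontal axis), by list (rows), with a point per gene, scattered vertically for legibility, and a black line at the median of the list. The 5 marker lists have medians between 23.6 and 59.1, the genes of other organs 33.8 and the hepatocyte genes 89.6, and Cd68 is the Kupffer cell gene at 97.5.

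Among the cholangiocyte genes the transcription factor gene Sox9 (probe set 17257946) read high, while the keratins were in the middle of the array scale and Epcam near its low end. Sox9 gave 7.48, 7.74 and 8.08 in GW4064 cultures and 7.09, 7.27 and 7.58 in DMSO cultures. Every GW4064 array was above its same-numbered DMSO array, yet the groups overlapped. Krt7 (probe set 17315200), a duct keratin, averaged 4.97 ± 0.34 in GW4064 and 4.87 ± 0.29 in DMSO (SD, n = 3 each, as for all such values here). Krt19 (probe set 17269368), its partner keratin in ducts, had 4.92, 5.06 and 5.35 in GW4064 and 4.76, 5.25 and 4.99 in DMSO. Epcam, an epithelial adhesion molecule gene absent from mature hepatocytes, had 2.66, 2.73 and 2.75 in GW4064 and 2.72, 2.60 and 2.65 in DMSO, at the 20.7th and the 19.6th percentile. The list was thus uneven, with Sox9 at the 89.6th percentile in GW4064 and the 85.1st in DMSO and Epcam among the lowest members. Of 13 further bile duct genes measured, 5 lay above the 50th percentile in DMSO. The brightest were Bicc1 at 8.18 in GW4064 and 8.25 in DMSO (92.9th percentile in DMSO) and Cldn4 at 7.07 and 7.28. Ddr1 followed at 6.08 and 6.23, and Pkhd1 at 5.17 and 5.26.

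Kupffer cell genes also split between a bright gene and dimmer ones. Cd68 (probe set 17264835), which encodes a lysosomal glycoprotein abundant in macrophages, was the highest of the 33 markers, with 9.86, 8.46 and 9.93 in GW4064 cultures and 9.63, 8.53 and 10.02 in DMSO cultures. Replicate 2 was the low array in both groups. The other 7 members all had means of at most 4.39 in both groups, and their DMSO percentiles ran from 20.9 to 50.4. Clec4f (probe set 17468209), a lectin gene that in mouse liver marks Kupffer cells, had 3.74, 3.60 and 3.63 in GW4064 and 3.93, 4.06 and 3.69 in DMSO. Marco, a scavenger receptor, was the second highest member with 4.39 ± 0.32 in GW4064 and 4.23 ± 0.38 in DMSO, and Csf1r, the receptor for the macrophage growth factor CSF1, averaged 3.76 ± 0.20 and 3.93 ± 0.09. Adgre1 (the F4/80 antigen), Vsig4 (a complement receptor), Timd4 (a receptor for dying cells) and Cd5l (a secreted macrophage protein) lay between 2.70 and 2.92 in GW4064 and between 2.72 and 2.99 in DMSO, in the range of the genes of other organs.

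Further macrophage genes gave the same split picture, with 3 of 20 measured above the 50th percentile in DMSO. The highest was Slc40a1, the iron exporter ferroportin, which hepatocytes also make, with 8.44 ± 0.28 in GW4064 and 8.19 ± 0.30 in DMSO. Cx3cr1, a chemokine receptor, averaged 5.09 in GW4064 and 5.34 in DMSO, and Fcna, a ficolin, 4.81 and 4.91. The next was Fcer1g, a signalling chain of Fc receptors, at 4.50 ± 0.21 in GW4064 and 4.14 ± 0.30 in DMSO.

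Endothelial genes sat somewhat higher as a list, with 5 of 7 above the 50th percentile in DMSO and a median of 53.7. Cdh5 (probe set 17504399), the cadherin of endothelial junctions, led with 6.22, 6.78 and 5.91 in GW4064 and 6.03, 6.55 and 5.99 in DMSO. Lyve1 (probe set 17495097), the hyaluronan receptor of lymphatic and sinusoidal endothelium, had 6.04, 6.06 and 5.73 in GW4064 and 6.01, 6.37 and 5.55 in DMSO. Replicate 2 was the highest array of both genes in both groups. Pecam1 (an adhesion molecule), Stab1 (a scavenger receptor), Kdr (the VEGF receptor 2) and Stab2 (the second stabilin) had means from 4.10 to 4.74 in GW4064 and from 4.09 to 4.75 in DMSO, while Clec4g, a lectin of sinusoidal endothelium, was low at 2.83 ± 0.27 and 2.87 ± 0.13. Of 23 further endothelial genes 6 lay above the 50th percentile, with Gata4, a transcription factor of sinusoidal endothelium, at 6.25 in GW4064 and 6.17 in DMSO, followed by Flt4 (the VEGF receptor 3), Oit3 (a sinusoidal secreted protein) and Egfl7 (an endothelial matrix protein) between 4.99 and 5.56 in GW4064 and between 5.12 and 5.45 in DMSO.

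Apart from Acta2, stellate cell genes had DMSO percentiles from 29.1 to 51.3. Acta2 (probe set 17364098), smooth muscle actin, gave 6.38, 6.48 and 6.31 in GW4064 and 6.36, 6.48 and 6.35 in DMSO, with an SD of 0.08 and 0.07. Its groups overlapped fully. The skeletal actin gene Acta1 gave 6.98, 6.77 and 6.75 in GW4064 and 6.79, 6.67 and 6.66 in DMSO on its own probe set. These paralogs are nearly identical in coding sequence, so both readings are uncertain as measures of their own gene. The fibrillar collagen genes Col1a1, Col1a2 and Col3a1, the PDGF receptor gene Pdgfrb, the proteoglycan gene Dcn, the retinol-esterifying enzyme gene Lrat and Des (desmin) had means from 3.17 to 4.32 in GW4064 and from 3.09 to 4.29 in DMSO. Lrat, which quiescent stellate cells use to store vitamin A, averaged 3.39 ± 0.39 in GW4064 and 3.23 ± 0.21 in DMSO, at the 35.3rd and the 31.8th percentile. The second probe set of Col1a2 was dimmer still, between 1.98 and 2.09 in GW4064 and between 1.79 and 1.94 in DMSO, and the probe sets disagreed in sign, with log2 changes of -0.18 for the brighter and 0.16 for the dimmer.

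The further mesenchymal genes were led by Vim, the intermediate filament vimentin, with 10.96, 11.07 and 10.75 in GW4064 and 10.97, 11.01 and 10.60 in DMSO. Vimentin is made by many cells in culture. Lox, a collagen cross-linking enzyme, averaged 6.75 ± 1.22 in GW4064 and 7.22 ± 0.97 in DMSO. Tagln, an actin-binding protein of contractile cells, and Bgn, a matrix proteoglycan, followed with 5.92 and 5.69 in GW4064 and 6.00 and 5.58 in DMSO. The remaining genes of this list included Hgf, the hepatocyte growth factor of stellate cells, at 2.82 in GW4064 and 2.76 in DMSO, and Lum, a proteoglycan, at 2.20 and 2.05.

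Leukocyte genes were the lowest of the 5 lists, with a median level of 2.70 in GW4064 and 2.84 in DMSO and a median DMSO percentile of 23.6. Ptprc (probe set 17227536), the pan-leukocyte antigen CD45, had 2.26, 2.51 and 2.49 in GW4064 and 2.50, 2.48 and 2.76 in DMSO. The neutrophil calcium-binding proteins S100a8 and S100a9 averaged 2.15 ± 0.19 and 2.43 ± 0.02 in GW4064 and 2.11 ± 0.06 and 2.57 ± 0.09 in DMSO, and S100a8 was the lowest of all 33 members, at the 9.28th percentile in GW4064 and the 8.85th in DMSO. Cd3e of T cells and Cd79a of B cells averaged 2.97 and 3.29 in GW4064 and 3.23 and 3.11 in DMSO, inside the range of the genes of other organs. Nkg7, a granule protein of cytotoxic cells, was the one brighter member, with 4.73, 4.60 and 4.61 in GW4064 and 4.73, 4.80 and 4.65 in DMSO. In the further leukocyte list 3 of 29 measured genes were above the 50th percentile in DMSO, the chemokine gene Ccl5 at 5.70 ± 0.68 in GW4064 and 5.70 ± 0.62 in DMSO, the GTPase gene Rac2 at 5.23 and 5.22, and the perforin gene Prf1 at 4.40 and 4.27.

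**Figure D2:**
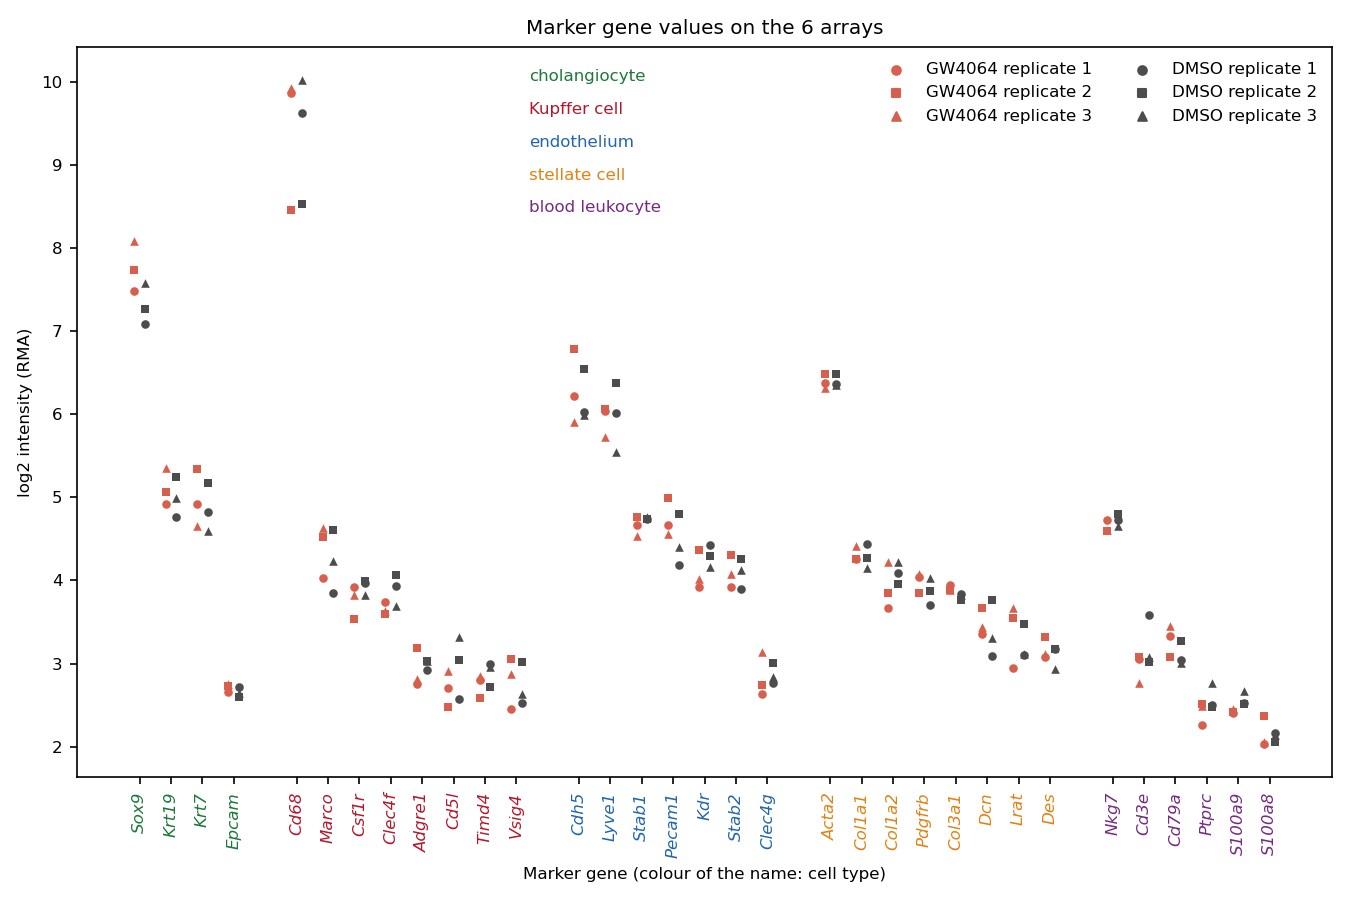
Deposited log2 intensity (vertical axis) of the 33 measured markers (horizontal axis, grouped by cell type and ordered by DMSO mean), with GW4064 arrays left of DMSO arrays and a symbol shape for each replicate number. Cd68, Sox9, Acta2, Cdh5 and Lyve1 stand above the other members, and Cd68 splits into replicate 2 (8.46 in GW4064 and 8.53 in DMSO) and the other replicates (at least 9.63).

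None of the 33 markers passed the test of GW4064 against DMSO at a limma adjusted p under 0.05, where 0.0496% of all 22180 genes were raised (11 genes) and 0% lowered. The list was split in sign, with 18 members higher and 15 lower, against 44.6% of all genes higher, and its median log2 change was 0.03 where that of all genes was -0.02. At an unadjusted p under 0.05 limma gave 1 member higher (Sox9) and none lower, where 2.60% and 3.06% of all genes were. With the replicate number as a block these were 2 higher (Sox9 and Pecam1) and none lower, against 4.01% and 5.12% of all genes, or 9.13% in either direction. None of the 33 passed after adjustment with the block, where 0.0721% of all genes were raised and 0.00902% lowered, 0.0812% together. Members higher in all 3 same-numbered pairs numbered 4 (12.1%, against 12.6% of all genes) and members lower in all pairs 6 (18.2%, against 18.6%), both close to the background.

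Sox9 had the largest difference of the members, 0.45 on the log2 scale (SE 0.17, 95% interval 0.06 to 0.84), with an adjusted p of 0.858. Its same-numbered pairs differed by 0.39, 0.47 and 0.50, and with the replicate block the adjusted p was 0.204 at an unadjusted p of 9.65e-04, the smallest of the 33. The other cholangiocyte genes were also above 0, with Krt19 at 0.11 (SE 0.15), Krt7 at 0.11 (SE 0.19) and Epcam at 0.05 (SE 0.09), each within its error. Further bile duct genes did not share a sign, with 4 of 13 higher and none past the threshold. Sctr, the secretin receptor, and Prom1, a membrane glycoprotein, had 0.26 (SE 0.10) and 0.30 (SE 0.13) at adjusted p-values of 0.858 and 0.877. The brightest genes of that list ran the other way, with Cldn4 (a tight junction claudin) at -0.21, Ddr1 (a collagen receptor) at -0.15, Pkhd1 (fibrocystin) at -0.09 and Bicc1 (an RNA-binding protein) at -0.07 and adjusted p-values of at least 0.964.

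Among Kupffer cell genes 3 of 8 were higher and 5 lower, where 44.6% of all genes were higher. Their median log2 change was -0.11, against -0.02 over all genes. Clec4f had -0.24 (SE 0.11, adjusted p = 0.918) and was lower in each pair, by -0.20, -0.46 and -0.06, while Cd5l had -0.28 (SE 0.19, adjusted p = 0.963) with 1 pair of the opposite sign. Cd68 had 0.03, with an interval of -0.98 to 1.03 that takes in the gap between replicate numbers and narrows to -0.21 to 0.26 with the replicate block. Of the 20 further macrophage genes 12 were higher and none passed, with Fcer1g at 0.36 (SE 0.17, adjusted p = 0.893).

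No endothelial, stellate or leukocyte member passed either. Pecam1 read 4.67, 4.99 and 4.56 in GW4064 and 4.19, 4.80 and 4.40 in DMSO, which differ by 0.27 on the log2 scale (SE 0.17) at an adjusted p of 0.961, and of 0.490 with the replicate block. Col3a1 was the 1 member with all GW4064 arrays above all DMSO arrays, 3.94, 3.89 and 3.88 against 3.84, 3.77 and 3.82, and S100a9 the 1 with all below, 2.41, 2.42 and 2.45 against 2.52, 2.51 and 2.67, where 4.58% and 6.19% of all genes separate in these ways. Their changes were 0.10 (SE 0.09) and -0.14 (SE 0.09). The further lists held no gene past the threshold either. Plvap, a protein of endothelial fenestrae, had 0.28 (SE 0.09, adjusted p = 0.768) and Dnase1l3, a sinusoidal nuclease, 0.24 (SE 0.11). The stromal chemokine gene Cxcl12 had 0.41 (SE 0.16, adjusted p = 0.858) and the filament gene Nes -0.30 (SE 0.14), and the B cell receptor gene Cd79b had -0.42 (SE 0.14, adjusted p = 0.789) and Coro1a, a leukocyte actin-binding protein, -0.26 (SE 0.09).

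**Figure D3:**
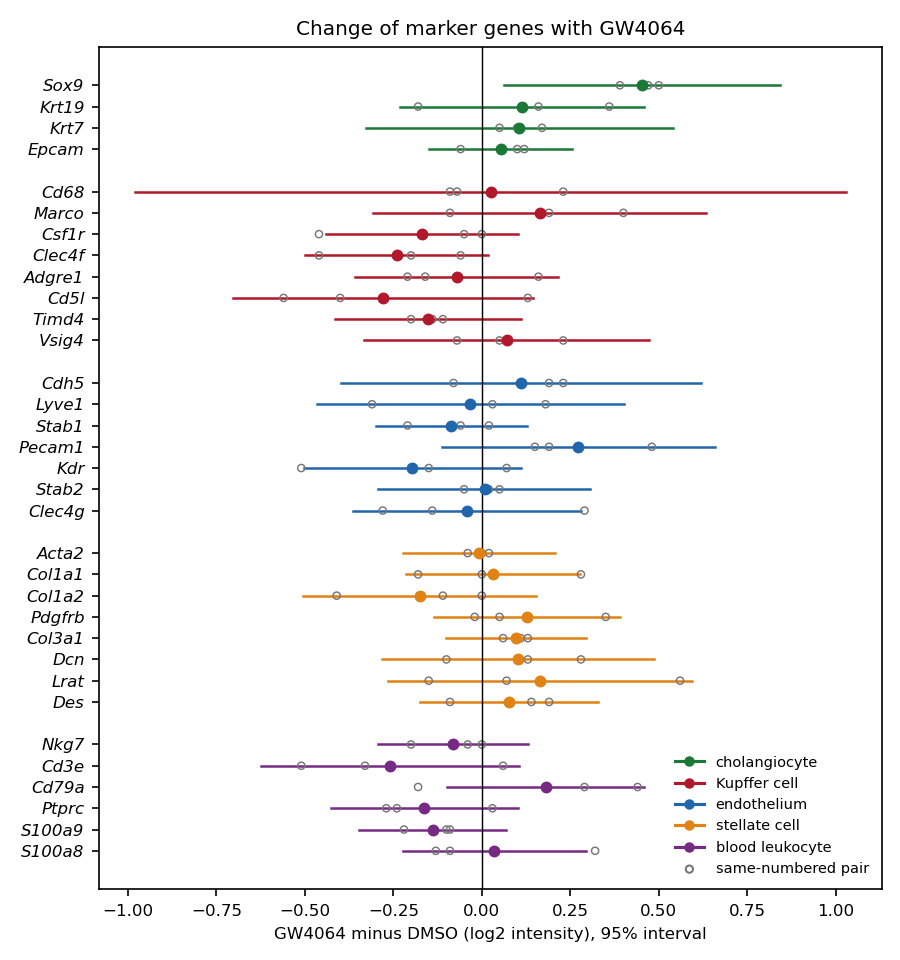
GW4064 minus DMSO in log2 intensity (horizontal axis) for the 33 measured markers, with filled points for the fitted difference, lines for limma's 95% interval without a block, open circles for the 3 same-numbered pairs and colours for cell types. The interval of Sox9 (0.06 to 0.84) lies above 0 before adjustment for 22180 genes, that of Cd68 is the widest, and every other interval takes in 0.

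Some markers differed between replicate numbers. A moderated F test of replicate number, with treatment in the model, passed for 1 of the 33 members at an adjusted p under 0.05, where 1.07% of all genes did (238 genes). This was Cd68, with replicate means of 9.75, 8.50 and 9.98 for replicates 1, 2 and 3 (adjusted p = 0.0141). The low replicate was the same in both groups, and the range of 1.48 between replicate means compares with a median range of 0.27 over the 33 members and 0.19 over all genes. With no adjustment, at p under 0.05, the test gave 10 of 33 members (30.3%), against 14.8% of all genes. Among the hepatocyte genes it gave 13 of 25 (52%), and among the genes of other organs 3 of 33 (9.09%). Genes known to increase as cultured hepatocytes lose their mature state gave 8 of 16 (50%). Without the replicate 2 pair the adjusted p of Cd68 in this F test was 0.476, without replicate 3 it was 0.0642, and without replicate 1 it was 0.0031. Under limma's intensity trend the test called 6 members, Cd68, Sox9, Cdh5, Krt7, Lyve1 and Marco, among 1760 of 22180 genes. Without genes under the median level, where only the brighter members were tested, it called 4, Cd68, Krt7, Cdh5 and Sox9, among 669 of 11090 genes.

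The Kupffer cell genes differed in which replicate was low. Timd4, the receptor for dying cells, shared replicate 2 as the lowest array of both groups with Cd68, at 2.80, 2.58 and 2.85 in GW4064 and 3.00, 2.72 and 2.96 in DMSO. Vsig4 read 2.45, 3.06 and 2.87 in GW4064 and 2.52, 3.02 and 2.63 in DMSO, so replicate 2 was its highest array in both groups, and Marco had replicate means of 3.94, 4.56 and 4.43. The F tests of Vsig4 and Marco gave unadjusted p-values of 0.00642 and 0.00723 and adjusted p-values of 0.168 and 0.177. Of the 20 further macrophage genes 5 (25%) were highest and 3 (15%) lowest in replicate 2 of both groups, where 14.5% of all genes were in each case, and none passed the F test after adjustment.

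Replicate 2 was the highest array in both groups for 4 of 7 endothelial genes (57.1%, against 14.5% of all genes), namely Cdh5, Pecam1, Stab2 and Lyve1. These 4 had unadjusted F test p-values from 0.00160 to 0.0209, and none passed after adjustment. They were picked on the values that the F test uses, so these p-values are no separate evidence of a replicate difference. Cdh5, for example, had replicate means of 6.12, 6.66 and 5.95 (adjusted p = 0.0922). In the further endothelial list 9 of 23 genes (39.1%) were also highest in replicate 2 of both groups, none passing the F test after adjustment, and Eng, the TGF-beta co-receptor endoglin, gave 4.55, 5.29 and 4.57 in GW4064 and 4.92, 5.29 and 4.61 in DMSO. Counting arrays in this manner was chosen after the values were seen. Over all members the count was 10 of 33 (30.3%), with Krt7, Vsig4, Adgre1, Acta2, Dcn and Des as the other 6. For replicates 1 and 3 it was 1 (3.03%, against 14.8% of all genes) and 6 (18.2%, against 15.2%).

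Other list genes also differed between replicate numbers. Tspan8, a tetraspanin of bile duct epithelium, read 4.68, 5.43 and 4.45 in GW4064 and 4.51, 5.30 and 4.41 in DMSO (F test adjusted p = 0.0273). Its replicate order was that of Krt7, and also of Cdh5, Lyve1 and the hepatocyte gene Ttr. Lox, the collagen cross-linking enzyme, was lowest in replicate 3, with 7.71, 7.17 and 5.37 in GW4064 and 8.09, 7.39 and 6.17 in DMSO (adjusted p = 0.0122). Ccl5 had 6.22, 4.94 and 5.96 in GW4064 and 6.26, 5.03 and 5.81 in DMSO (adjusted p = 0.0189), and like Cd68 it was lowest in replicate 2 of both groups. Of the hepatocyte genes 5 of 25 passed the same test (20.0%), namely Apoa2 (apolipoprotein A-II), Cyp2e1 and Cyp2c29 (cytochrome P450 enzymes), Tat (tyrosine aminotransferase) and Hpd (a tyrosine breakdown enzyme). The part of cell make-up in these differences was not tested.

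**Figure D4:**
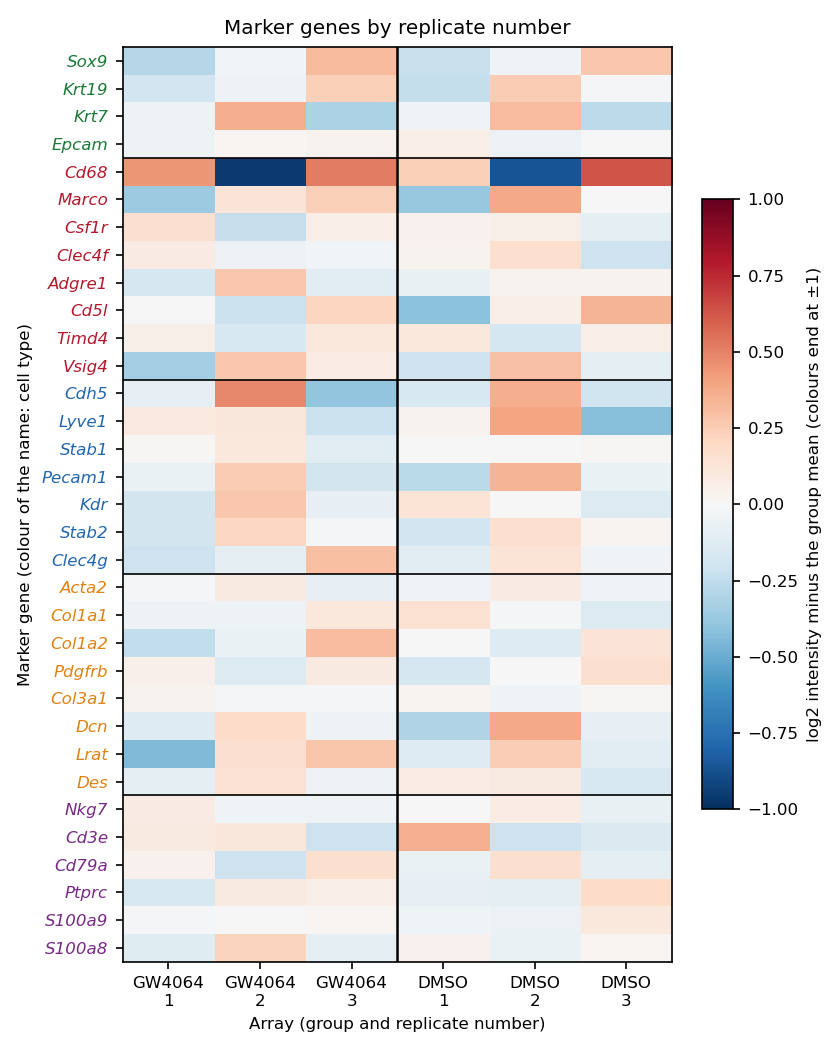
Log2 intensity minus the mean of the same treatment group (colour) for the 33 measured markers (rows, grouped by cell type) on each array (columns, GW4064 arrays left of DMSO arrays). Replicate 2 is the low column for Cd68 in both groups, in the darkest blue of the plot, and the high column for the endothelial genes Cdh5, Pecam1, Stab2 and Lyve1.

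The mean log2 intensity of the 7 endothelial genes was 4.58, 4.86 and 4.57 in GW4064 and 4.58, 4.86 and 4.55 in DMSO, so the replicate 2 arrays stood above the others in both groups by nearly the same amount. Kupffer cell genes averaged 4.03, 3.93 and 4.18 in GW4064 and 4.05, 4.12 and 4.21 in DMSO. Leukocyte genes averaged 2.97, 3.01 and 2.97 in GW4064 and 3.09, 3.02 and 3.05 in DMSO, below the 33 genes of other organs, whose means lay between 3.38 and 3.40 on all 6 arrays. The hepatocyte genes averaged 8.47, 8.47 and 8.35 in GW4064 and 8.45, 8.45 and 8.39 in DMSO.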

How the data were processed

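The 6 arrays were grouped by their titles, which also number the replicates. The authors deposited log2 intensities per probe set (41345), made with RMA per the submitters' processing notes, which list Partek too and give no version of either. No source states the log base, which was inferred from how far the values spread. Of the probe sets, 23521 had exactly 1 symbol in the platform annotation, 1814 several and 16010 none. Background correction and array slides could not be varied from these values.

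Differences were fitted over all 22180 genes with limma 3.58.1 (lmFit, eBayes) in R 4.3.3 with Benjamini-Hochberg adjustment, without a block or a filter on dim genes. A second fit added the replicate number and tested it with a moderated F test. The fits were tested on simulated data. Whether replicates come from separate animals is not stated, so p-values measure the spread between these arrays. With 3 arrays in each group, the smallest two-sided p of an exact permutation test is 0.1. Same-numbered arrays deviated together (correlations over genes of 0.26, 0.34 and 0.45, all above the minimum of 0.1), and each array's best match was the one of its own number.

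The members and the further lists were chosen with earlier results of these data known. Named genes are all members, the 4 brightest genes of each further list, the 2 with the smallest p for GW4064, and any past a threshold. Slco1b2, Asgr1, Slc10a1, Eng, Hgf, Lum, Tmsb10, Afp, Lgals3, Cd44, Prl and Myh7 were named after their values were seen. Alternatives were quantile normalization, median centring, filters on dim genes, the mean of probe sets, an intensity trend, the replicate block, and leaving out arrays or pairs.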

Additional observations from a re-analysis of the deposited data

How the results depend on the processing

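No marker passed the GW4064 test under any of the 16 alternatives in which it was tested, dim members being left out by the filters, and the smallest adjusted p was 0.204 (Sox9 with the replicate block). The sign held in all of them for 17 of the 33 measured members, Sox9, Clec4f, Pecam1, Col3a1 and S100a9 among them. For 16 it turned when arrays or pairs were left out. The log2 changes then ran from -0.0781 to 0.264 for Krt7, -0.0108 to 0.263 for Krt19, -0.206 to 0.0107 for Adgre1, -0.407 to 0.503 for Cd68, -0.0268 to 0.354 for Marco, -0.0653 to 0.243 for Vsig4, -0.0955 to 0.0982 for Stab2, -0.245 to 0.162 for Lyve1, -0.128 to 0.307 for Cdh5, -0.209 to 0.0755 for Clec4g, -0.00383 to 0.163 for Des, -0.052 to 0.0343 for Acta2, -0.092 to 0.136 for Col1a1, -0.0368 to 0.384 for Lrat, -0.0484 to 0.292 for Dcn and -0.108 to 0.115 for S100a8. Acta2 also turned with quantile normalization (0.0103), and the cause was not tested. Over all genes the replicate block gave 18 calls, 16 raised and 2 lowered, against 11 raised and none lowered without it. It changed no call among the members. Leaving out arrays or pairs gave 2 to 5 calls, 2 to 5 raised and 0 to 1 lowered, and the filter at the median level and the intensity trend gave 1 lowered gene each. For replicate number, the F test called 669 of 11090 genes and 4 members without genes under the median level, where dim members dropped out. Under the intensity trend it called 1760 of 22180 genes and 6 members. With pairs left out, an alternative added after the data were seen, it called 16 to 347 genes and 0 to 3 members, with fewer arrays in each fit. The median DMSO percentile of the members was 52.6 among all probe sets, unnamed ones included, against 44.97 among genes.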

Other observations

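Genes of blood and surface cells other than those above read near or below the middle of all genes. Median DMSO percentiles were 48.9 for the platelet and red cell genes and 32.4 for the mesothelial genes. Of the platelet and red cell genes 6 of 10 were measured, the brightest being Gp9 and Itga2b, platelet adhesion receptors, at 4.28 and 4.19 in GW4064 and 4.35 and 4.23 in DMSO, with Slc4a1 (the red cell anion exchanger) and Epor (the erythropoietin receptor) at 4.20 and 4.05 in GW4064 and 4.12 and 4.15 in DMSO. The 6 mesothelial genes, which mark the liver's outer lining, all lay under the 50th percentile in DMSO. They ran from Upk3b at 3.92 in GW4064 and 3.88 in DMSO, with Upk1b, Wt1 and Msln next, to Muc16 at 2.17 and 2.10. None of these genes passed the GW4064 test or the replicate test after adjustment.

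Genes known to increase when hepatocytes lose their mature state in culture were mostly bright, in contrast to the markers of other cells. Fresh hepatocytes were not measured, so whether these genes had increased was not tested. The lowest were Tmsb10, Afp, Lgals3 and Cd44, from the 62.7th to the 74.1st percentile in DMSO. All 16 measured were above the 50th percentile in DMSO and 10 were above the 90th, with Fn1 (fibronectin) at 11.86 in GW4064 and 12.00 in DMSO, Krt18 and Krt8 (simple epithelial keratins) at 11.64 and 11.55 in GW4064 and 11.63 and 11.50 in DMSO, and S100a11 (a calcium-binding protein) at 11.48 and 11.49. None passed the GW4064 test at a limma adjusted p under 0.05, nor at an unadjusted p under 0.05 without the replicate block, and the smallest p belonged to Actb (cytoplasmic actin), at -0.11 (SE 0.09) on the log2 scale. Cd24a, a surface glycoprotein of progenitor-like and bile duct cells, differed between replicate numbers, with 6.30, 6.90 and 5.68 in GW4064 and 6.91, 7.21 and 5.68 in DMSO (F test adjusted p = 0.0333). Replicate 2 was its highest and replicate 3 its lowest array in both groups, as for Krt7 and Tspan8. That order was not particular to bile duct genes. The hepatocyte genes Ttr and Fgb, the endothelial genes Cdh5 and Lyve1, and Vim had it too. Sox9 was instead highest in replicate 3 and lowest in replicate 1 of both groups. Over this list 11 of 16 genes (68.8%) were lowest in replicate 3 of both groups, against 17.7% of all genes.

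The genes of other organs that reached the brightest readings were Acta1, Krt10, Ckm (muscle creatine kinase) and Syt1 (a synaptic vesicle protein), the last pair at 4.65 and 4.66 in GW4064 and 4.49 and 4.46 in DMSO. Krt10 differed between the groups by -0.29 (SE 0.11) on the log2 scale at an adjusted p of 0.814, and Gh, the growth hormone gene, by 0.28 (SE 0.12) at 0.863. Larger differences in that list were those of Prl, 0.31 (SE 0.15), and Myh7, -0.30 (SE 0.15). Of the 33 measured non-hepatocyte markers, Sox9 was the 1 whose fitted difference exceeded these in size, at an adjusted p of 0.858.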
